A study of Homo sapiens with 16 samples.

Results

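The genes described here are 9 genes of the gastric mucous and gland cells: the mucins MUC1, MUC5AC and MUC6, the trefoil factors TFF1 and TFF2, pepsinogen C (PGC), lysozyme (LYZ), the calpain CAPN8 and the annexin ANXA10. They were taken by symbol from a table of 28167 gene symbols, with the rows of a symbol summed. No expression value was used as a rule for the choice, but the list was made with earlier results of these data known. The level is FPKM, a fragment number corrected for the length of the transcript and for the mapped fragments of the library. The 16 libraries come from SNU719 and YCC10, established gastric cancer cell lines that carry Epstein-Barr virus. The medium was RPMI1640 for SNU719 and EMEM for YCC10, each with fetal bovine serum. In the MYB set, cells given the control siRNA (siCtrl, genotype WT) were compared with cells given siMYB, with 2 libraries per group and line. In the TCF7 set siCtrl was compared with siTCF7, with 1 library per group and line. In the CRISPRi set, in which CRISPR interference silences a site without cutting it, the control guide sgCtrl was compared with sgMYB-E3, a guide named for an enhancer of MYB, again with 1 library per group and line. The sources used here do not give how the interference protein was expressed, whether the cells were clones or how long each knockdown lasted.

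The gastric surface is covered by a gel of secreted mucin, chiefly MUC5AC from surface (foveolar) cells and MUC6 from neck and gland cells, while MUC1 is a mucin anchored in the cell membrane. Trefoil factors are small, disulfide-linked peptides secreted with the mucins, TFF1 with MUC5AC and TFF2 with MUC6, and they take part in repair of the epithelium. PGC is the precursor of the protease gastricsin, LYZ cleaves bacterial cell walls, CAPN8 is a calcium-dependent protease found mainly in the stomach, and ANXA10 is an annexin typical of gastric surface epithelium. MYB is a transcription factor of progenitor cells, and TCF7 is a DNA-binding partner of beta-catenin in the Wnt pathway. The study asked what MYB and TCF7 do in gastric cancer cells.

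MYB stood at 20.2% of its control mean with siMYB in SNU719 and 5.95% in YCC10, at 56.0% and 21.1% with siTCF7, and at 38.5% and 58.4% with sgMYB-E3. TCF7 stood at 29.7% and 18.3% with siTCF7. MYB itself passed by limma with siMYB in each line and with siTCF7, but not with sgMYB-E3 (log2 change -1.03, adjusted p = 0.981). Both lines expressed all 6 epithelial markers examined (EPCAM, KRT8, KRT18, KRT19, CDH1, CLDN4) at 1 FPKM or more. Of the 6 leukocyte markers only CD68 did so, and of 4 fibroblast and 4 endothelial markers none; summed levels were at most 0.736 and 0.0165 FPKM. Libraries listed 11176 to 12085 genes at 1 FPKM or more. The MYB-set libraries numbered 1 stood apart: they listed 71.6% to 77.6% of 250 short RNA genes at 0, against 39.2% to 60.4% in the other 12. The table gives no fragment counts, so the absolute depth of each library is unknown. A relative depth, read from the lowest values, is given with the processing.

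All 9 genes were protein coding in the GENCODE 29 annotation of GRCh38. MUC1 lies at chr1:155185824-155192916 and CAPN8 at chr1:223538007-223665734, both on the minus strand. MUC6 (chr11:1012821-1036706, minus strand) and MUC5AC (chr11:1157953-1201138, plus strand) are 121246 bp apart. TFF2 (chr21:42346357-42351128) and TFF1 (chr21:42362282-42366594) are neighbours on the minus strand, 11153 bp apart. PGC lies at chr6:41736711-41754109 on the minus strand, LYZ at chr12:69348341-69354234 and ANXA10 at chr4:168092515-168187690, both on the plus strand. LYZ exons overlap the antisense gene AC020656.1 over 599 bp, and the sources used here do not give how strand was used in the quantification. MUC1 exons overlap AL713999.1 on the same strand over 48 bp.

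RefSeq promoters (GRCh38.p14) matched 4 of the 9 genes: MUC1, PGC, CAPN8 and ANXA10. The 250 bases before the RefSeq start are shown for PGC and MUC1, which had the largest increases with siMYB in YCC10, and for ANXA10, which had the largest in SNU719. Sequences run 5′ to 3′ on the gene's strand, and capitals mark matches on either strand to AACNG, the core of the MYB recognition motif. The windows are chr6:41747398-41747647 (PGC), chr1:155192916-155193165 (MUC1) and chr4:168092287-168092536 (ANXA10). The RefSeq start of PGC lies 6712 bp downstream of the GENCODE gene start given above, so its window is inside the GENCODE gene; for MUC1 and ANXA10 the starts are 1 and 22 bp apart.
PGC: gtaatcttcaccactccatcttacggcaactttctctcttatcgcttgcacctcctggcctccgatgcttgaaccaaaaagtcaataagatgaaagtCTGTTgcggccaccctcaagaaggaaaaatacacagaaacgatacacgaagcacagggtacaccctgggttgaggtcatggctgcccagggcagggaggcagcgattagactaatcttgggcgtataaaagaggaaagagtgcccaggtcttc
MUC1: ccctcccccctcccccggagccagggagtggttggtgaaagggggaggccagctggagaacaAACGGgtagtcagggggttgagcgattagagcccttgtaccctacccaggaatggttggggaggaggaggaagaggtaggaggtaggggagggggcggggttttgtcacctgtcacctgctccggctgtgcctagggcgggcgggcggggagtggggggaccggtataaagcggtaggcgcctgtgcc
ANXA10: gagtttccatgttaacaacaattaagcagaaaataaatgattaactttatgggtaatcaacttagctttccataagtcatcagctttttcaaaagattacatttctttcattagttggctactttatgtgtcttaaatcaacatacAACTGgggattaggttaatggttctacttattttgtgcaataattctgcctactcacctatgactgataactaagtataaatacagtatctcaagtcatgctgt
Each of these windows, and that of CAPN8, held 1 match to AACNG. A match was present in 70.6% of 27305 RefSeq promoters of the same length, with a median of 1. None of the 4 held CTTTGA, the core bound by TCF and LEF proteins, on either strand; 11.4% of the promoters did. The bases differ widely in composition, from a GC content of 31.2% for ANXA10 to 66.0% for MUC1.

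In cells given a control siRNA or control guide, most of these genes were on in YCC10 and low or near 0 in SNU719. The 4 control libraries of each line (siCtrl of both siRNA sets and sgCtrl) were compared to describe the lines without a knockdown of MYB or TCF7. The series holds no untreated cells. MUC1 ran from 1.64 to 4.47 FPKM in SNU719 (median 2.74) and from 62.5 to 120.1 in YCC10 (median 87.2). TFF1 had a median of 0.622 FPKM in SNU719 (0.431 to 1.08) and 31.1 in YCC10 (13.2 to 40.7). TFF2 was between 0 and 0.323 FPKM in SNU719 and between 9.09 and 23.8 in YCC10, with medians of 0.197 and 17.5. The 4 libraries of a line did not overlap those of the other line for any of these 3 genes.

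PGC was listed at 0 in 2 of the 4 SNU719 controls and reached 0.0840 FPKM at most, against 18.9 to 27.1 FPKM in YCC10 (median 19.8). ANXA10 lay between 0.607 and 1.38 FPKM in SNU719 (median 1.07) and between 19.1 and 43.2 in YCC10 (median 31.7). LYZ was the most abundant of the 9 in both lines, with 1214 to 1495 FPKM in SNU719 (median 1379) and 3917 to 4529 in YCC10 (median 4252). It ranked 46 of 11861 genes in SNU719 and 9 of 11379 in YCC10. CAPN8 alone was higher in SNU719, at 19.1 to 34.6 FPKM (median 22.8), than in YCC10, at 15.4 to 17.6 (median 16.7).

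Mean control levels were 42.1-fold higher in YCC10 for TFF1, 30.8-fold for MUC1, 30.4-fold for ANXA10 and 3.10-fold for LYZ, and 1.50-fold higher in SNU719 for CAPN8. By limma, with the set as a covariate, 7 of the 7 genes tested passed an adjusted p of 0.05, 6 higher and 1 lower in YCC10, where 64% of all 12187 genes tested passed. On the log2(FPKM + 1) scale the difference was 4.54 for MUC1 (SE 0.0966, adjusted p = 5.18e-07) and 4.43 for PGC (SE 0.0816, adjusted p = 3.4e-07). CAPN8 differed by -0.52 (SE 0.146, adjusted p = 0.0204). TFF1, TFF2 and PGC reached the filter of a mean of 1 FPKM only through YCC10, so a test of them could hardly miss, and their count supports nothing. Leaving out the second SNU719 or the first YCC10 siCtrl library (both MYB set), CAPN8 did not pass (adjusted p = 0.0545 and 0.0546).

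Ordered by control medians in SNU719, LYZ, CAPN8 and MUC1 each stood clear of the next gene, ANXA10 overlapped TFF1, TFF1 stood clear of TFF2, and TFF2, PGC and MUC6 overlapped each other near 0. In YCC10, LYZ and then MUC1 stood clear, and ANXA10, TFF1, PGC, TFF2 and CAPN8 followed with each gene's libraries overlapping those of the next. YCC10 controls varied between sets: the highest TFF1 control was 3.09 times the lowest and the highest TFF2 control 2.62 times, against 1.16 for LYZ. A change is therefore given against the control of its own set, and its place among all 4 controls of the line is stated.

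**Figure D1:**
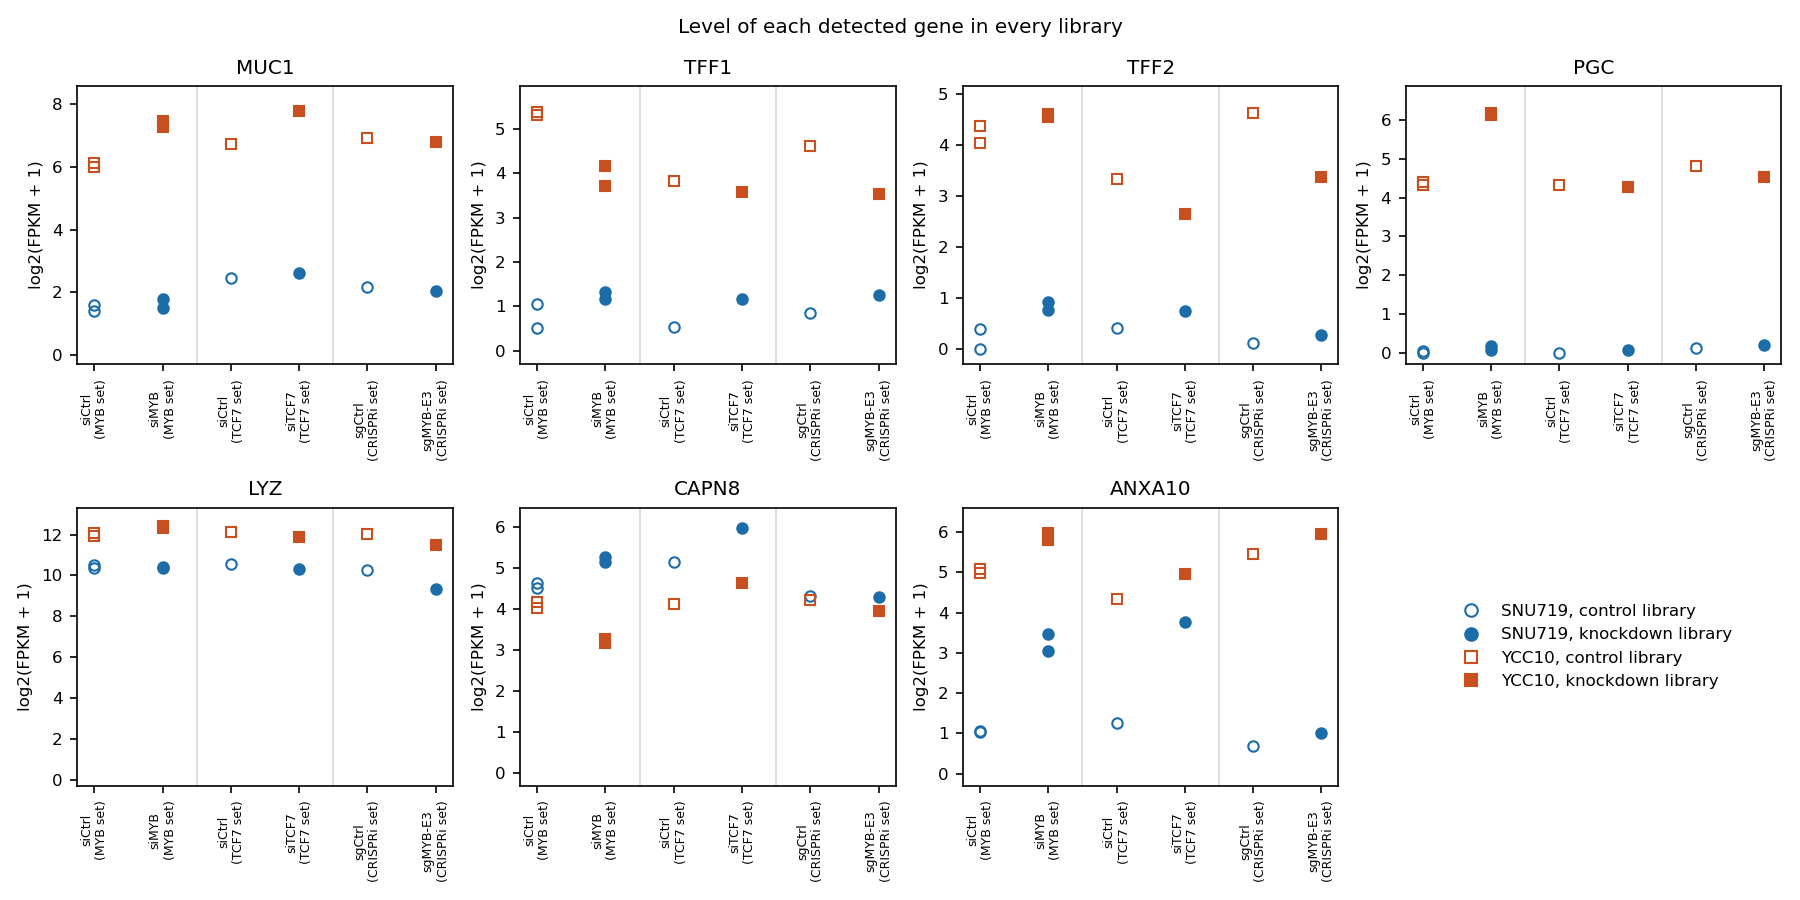
Levels of the 7 detected genes in every library, 1 panel per gene; the vertical axis is log2(FPKM + 1) and the horizontal axis the 6 arms of the 3 sets, with open symbols for controls, filled symbols for knockdowns, circles for SNU719 and squares for YCC10. YCC10 controls lie far above SNU719 controls for MUC1, TFF1, TFF2, PGC and ANXA10, and only in CAPN8 do the SNU719 controls lie higher.

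The secreted gel mucins were at or near 0. MUC5AC was listed at 0 in 8 of 16 libraries and reached at most 0.00481 FPKM; MUC6 was listed at 0 in 1 library and reached at most 0.0910 FPKM. Neither reached a mean of 1 FPKM in any fit, so neither was tested, and no fold is given. Their usual partners TFF1 and TFF2 were thus present in YCC10 with MUC5AC and MUC6 near 0.

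MYB knockdown by siRNA was followed by different changes in the 2 lines. In YCC10, PGC, MUC1, ANXA10 and LYZ rose and TFF1 and CAPN8 fell: 6 of the 7 genes tested, where 41.8% of all 12095 genes passed. In SNU719, ANXA10, CAPN8 and TFF2 rose and none fell: 3 of 7, where 22.6% passed. TFF2 is in this count with all its SNU719 levels of the set below 1 FPKM, and it entered the fit only through YCC10. The median log2 change of the 7 was 0.38 in YCC10 and 0.46 in SNU719, against -0.07 and -0.06 for all genes. In bulk RNA, fewer cells that express a gene and less RNA per cell cannot be told apart.

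MUC1 in YCC10 was at 62.5 and 69.5 FPKM in siCtrl and at 155.1 and 175.4 in siMYB, so the knockdown libraries were above both of their controls and above all 4 controls of the line. That is 2.50-fold the control mean, and the log2 change was 1.31 (SE 0.132, adjusted p = 0.00108). In SNU719 MUC1 was at 1.64 and 2.04 FPKM in siCtrl and 2.45 and 1.82 in siMYB, and the groups overlapped (log2 change 0.14, SE 0.132, adjusted p = 0.504). The change differed between the lines by 1.17 on the log2 scale (YCC10 minus SNU719, SE 0.186, adjusted p = 0.0127), and it missed the threshold without the first YCC10 siCtrl library (adjusted p = 0.053).

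The trefoil genes parted. TFF1 in YCC10 was at 40.7 and 38.8 FPKM in siCtrl and 12.1 and 16.9 in siMYB, 36.5% of the control mean, and it fell by 1.41 on the log2 scale (SE 0.219, adjusted p = 0.00441). The siMYB libraries were below both of their own controls, but the YCC10 siCtrl library of the TCF7 set, at 13.2 FPKM, lay between them. In SNU719 TFF1 was at 1.08 and 0.431 FPKM in siCtrl and 1.52 and 1.23 in siMYB, above all 4 controls of the line, with a log2 change of 0.46 that did not pass (SE 0.219, adjusted p = 0.191). The lines differed by -1.87 (SE 0.310, adjusted p = 0.0144). This difference missed the threshold without the first YCC10 siCtrl library (adjusted p = 0.0571), without the first SNU719 siMYB library (adjusted p = 0.0549) and in the fit of all 16 libraries (adjusted p = 0.0501).

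TFF2, which lies beside TFF1, was at 0.312 and 0 FPKM in SNU719 siCtrl and at 0.685 and 0.889 in siMYB. These levels are all below 1 FPKM, and the log2 change of 0.64 (SE 0.167) was close to the threshold (adjusted p = 0.0434). With the replicate number as a block it did not pass (adjusted p = 0.0594), nor without the second siCtrl library (log2 change 0.44, adjusted p = 0.16) or without any 1 of the 4 siMYB libraries (adjusted p from 0.0729 to 0.168). Nor did it pass with a pseudocount of 0.1 FPKM (0.06), without the filter (0.0754), after quantile normalization (0.085) or in the fit of all 16 libraries (0.241). In YCC10 TFF2 was at 15.3 and 19.6 FPKM in siCtrl and at 23.3 and 22.4 in siMYB, inside the range of the 4 controls, and did not pass (log2 change 0.38, SE 0.167, adjusted p = 0.122). The difference between lines was -0.26 (SE 0.236, adjusted p = 0.489).

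PGC, the pepsinogen, had the largest change of the 7 in YCC10. It was at 18.9 and 20.3 FPKM in siCtrl and at 69.6 and 71.9 in siMYB, 3.60-fold the control mean and above all 4 controls of the line. The log2 change was 1.80 (SE 0.0646, adjusted p = 0.00011). In SNU719 PGC stayed near 0, at 0 and 0.0353 FPKM in siCtrl and 0.0464 and 0.121 in siMYB (log2 change 0.09, SE 0.0646, adjusted p = 0.366). The lines differed by 1.71 (SE 0.0913, adjusted p = 0.000976) with a pseudocount of 1 FPKM; with 0.1 FPKM the difference was 1.22 and did not pass (adjusted p = 0.0542). PGC entered the fit only through YCC10, and near 0 FPKM the scale with a pseudocount of 1 holds the SNU719 change close to 0, so this difference restates the YCC10 change.

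LYZ moved little for its level. In YCC10 it was at 4317 and 3917 FPKM in siCtrl and at 5491 and 5136 in siMYB, 1.29-fold the control mean and above all 4 controls of the line. It rose by 0.37 on the log2 scale (SE 0.0776, adjusted p = 0.0127). It did not pass without the second siCtrl library (adjusted p = 0.0672), without the first siMYB library (adjusted p = 0.0755), without the filter (0.072) or after quantile normalization (0.105). In SNU719 LYZ was at 1450 and 1307 FPKM in siCtrl and 1345 and 1314 in siMYB, with overlapping groups and a log2 change of -0.05 (SE 0.0776, adjusted p = 0.692). The line difference of 0.42 (SE 0.110, adjusted p = 0.0496) did not pass when any 1 of the 8 libraries was left out (adjusted p from 0.0744 to 0.139), without the filter (0.175), after quantile normalization (0.315) or in the fit of all 16 libraries (0.0849).

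CAPN8 moved in opposite directions. In SNU719 it was at 21.7 and 23.9 FPKM in siCtrl and at 34.7 and 37.4 in siMYB, 1.58-fold the control mean (log2 change 0.64, SE 0.0819, adjusted p = 0.00546). Both siMYB libraries were above all 4 SNU719 controls, the lower one narrowly so, at 34.7 against 34.6 FPKM in the siCtrl library of the TCF7 set. In YCC10 CAPN8 was at 15.4 and 17.1 FPKM in siCtrl and at 8.09 and 8.68 in siMYB, 51.7% of the control mean and below all 4 controls, and it fell by 0.87 on the log2 scale (SE 0.0819, adjusted p = 0.000883). The lines differed by -1.51 (SE 0.116, adjusted p = 0.00191), and this call held in all 16 alternatives tried.

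ANXA10 rose in both lines. In SNU719 it was at 1.05 and 1.10 FPKM in siCtrl and at 7.22 and 9.99 in siMYB, 8.02-fold the control mean and above all 4 controls (log2 change 2.20, SE 0.144, adjusted p = 0.000791). In YCC10 it was at 33.0 and 30.5 FPKM in siCtrl and at 61.8 and 54.5 in siMYB, 1.83-fold the control mean and above all 4 controls (log2 change 0.85, SE 0.144, adjusted p = 0.00601). The change was smaller in YCC10 by 1.35 on the log2 scale (log2 difference -1.35, SE 0.204, adjusted p = 0.0109). In the fit of all 16 libraries, which shares 1 siTCF7 effect between the lines, neither the YCC10 change (adjusted p = 0.0986) nor the line difference (adjusted p = 0.122) passed.

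**Figure D2:**
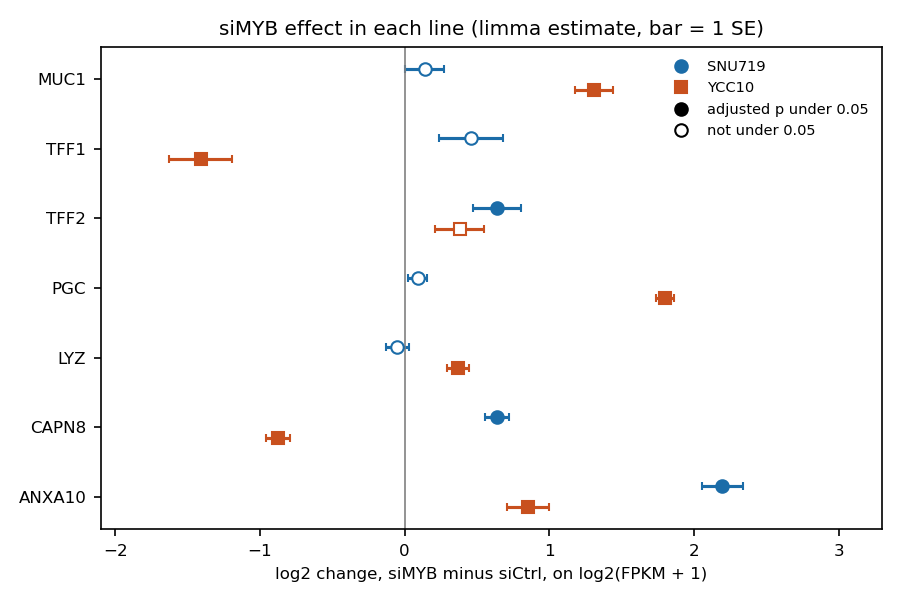
Change with siMYB in each line for the 7 genes, as log2(FPKM + 1) in siMYB minus siCtrl with bars of 1 SE from limma; circles are SNU719, squares YCC10, and filled symbols passed an adjusted p of 0.05. TFF1 and CAPN8 lie on opposite sides of 0 in the lines, PGC and MUC1 are displaced in YCC10 and near 0 in SNU719, and ANXA10 is to the right in both.

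Of the 7 genes, 6 thus had a siMYB change that differed between the lines, 3 higher and 3 lower in YCC10, where 19% of all genes did. The count was 3 to 5 when any 1 library was left out and 3 in the fit of all 16 libraries, and it includes PGC and LYZ with the limits given above. With a block for the replicate number the counts of all genes past the threshold were 4856 in place of 2737 in SNU719 and 4352 in place of 2297 for the line difference, and the count of the 7 was 2 in SNU719 and 6 for the line difference. Using only the libraries numbered 2, as a value with no test chosen after the data were seen, log2 changes in YCC10 were 1.32 for MUC1, -1.15 for TFF1, 0.19 for TFF2, 1.77 for PGC, 0.39 for LYZ, -0.90 for CAPN8 and 0.82 for ANXA10. In SNU719 they were -0.11 for MUC1, 0.64 for TFF1, 0.92 for TFF2, 0.11 for PGC, 0.01 for LYZ, 0.62 for CAPN8 and 2.39 for ANXA10.

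In a fit of 1 effect shared by both lines, ANXA10 (log2 change 1.52, SE 0.273, adjusted p = 0.009) and TFF2 (0.51, SE 0.122, adjusted p = 0.0227) rose, 2 of 7, where 29.4% of all genes passed. TFF2 did not pass with the replicate block (adjusted p = 0.0532), nor without the first YCC10 siCtrl library (0.0648), either SNU719 siMYB library (0.0501 and 0.0559) or the first YCC10 siMYB library (0.0586), with a pseudocount of 0.1 FPKM (0.108) or in the fit of all 16 libraries (0.131). MUC1 (0.72, adjusted p = 0.0615), PGC (0.94, adjusted p = 0.0709), LYZ (0.16, adjusted p = 0.252), TFF1 (-0.48, adjusted p = 0.376) and CAPN8 (-0.12, adjusted p = 0.788) did not pass. MUC1 passed without the second SNU719 siCtrl library (adjusted p = 0.0417) or the second SNU719 siMYB library (0.0361) and in the fit of all 16 libraries (0.00494). PGC passed with a pseudocount of 0.1 FPKM (1.24, adjusted p = 0.0172) and in the fit of all 16 (5.83e-05), with its SNU719 levels near 0 FPKM. Epithelial markers also changed with siMYB: 5 of 6 rose in SNU719, and in YCC10 3 rose and 2 fell; CD68 rose in both lines. Their part in the changes of the 7 genes was not tested.

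TCF7 knockdown was followed by higher ANXA10 and CAPN8 over both lines, and none of the 7 fell: 2 of 7, where 24.6% of all 12290 genes passed. ANXA10 was at 1.38 FPKM in siCtrl and 12.5 in siTCF7 in SNU719, and at 19.1 and 29.9 in YCC10. This is 9.06-fold and 1.57-fold, and the shared log2 change was 1.57 (SE 0.358, adjusted p = 0.0189). The SNU719 library was above all 4 controls of its line, while the YCC10 library lay within the range of its line's controls, of which the highest was 43.2 FPKM. With either SNU719 library of the set left out, the change was 0.62 (adjusted p = 0.046 and 0.0462), and with either YCC10 library left out it was 2.50 (adjusted p = 0.002 and 0.00206).

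CAPN8 was at 34.6 FPKM in siCtrl and 61.7 in siTCF7 in SNU719, and at 16.4 and 23.9 in YCC10, above all 4 controls of the line in both. The shared log2 change was 0.67 (SE 0.101, adjusted p = 0.00752). In YCC10 CAPN8 was therefore higher with siTCF7 and lower with siMYB, each against its own control.

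MUC1 did not pass with siTCF7. It went from 104.8 to 218.7 FPKM in YCC10, 2.09-fold, and from 4.47 to 5.08 in SNU719, both above all 4 controls of the line. The shared change of 0.60 did not pass (adjusted p = 0.0596); with either SNU719 library of the set left out, the YCC10 value of 1.05 passed (adjusted p = 0.00427 and 0.00429). Whether the lines differ in this change was not tested, with 1 library per group.

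The other 4 genes also did not pass with siTCF7. TFF1 was at 0.447 FPKM in siCtrl and 1.25 in siTCF7 in SNU719, and at 13.2 and 11.0 in YCC10 (shared log2 change 0.20, adjusted p = 0.724). TFF2 was at 0.323 and 0.675 FPKM in SNU719 and at 9.09 and 5.23 in YCC10 (-0.18, adjusted p = 0.74). For both trefoil genes the siTCF7 library was above all 4 controls in SNU719 and below all 4 in YCC10.

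PGC was at 0 and 0.0383 FPKM in SNU719 siCtrl and siTCF7, and at 19.2 and 18.4 in YCC10, where siMYB had raised it (shared log2 change -0.00424, SE 0.0878, adjusted p = 0.99). LYZ was at 1495 and 1268 FPKM in SNU719 and at 4529 and 3793 in YCC10 (-0.25, adjusted p = 0.097). The YCC10 siTCF7 library was below all 4 controls of the line for both genes. MYB itself was lower in the siTCF7 libraries, as given above, so the siTCF7 samples are not samples with TCF7 alone reduced.

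With the enhancer guide sgMYB-E3, 0 of the 7 genes passed by limma, where 0.0325% of all genes did (4 of 12290); at an unadjusted p of 0.05, 1 of the 7 and 461 of all genes passed. The gene was LYZ. It was at 1214 FPKM in sgCtrl and 652.6 in sgMYB-E3 in SNU719, 53.7% of control, and at 4187 and 2921 in YCC10, 69.8% of control. Both sgMYB-E3 libraries were below all 4 controls of their line. The shared log2 change was -0.71 (SE 0.0967, unadjusted p = 8.77e-05, adjusted p = 0.12), and with either YCC10 library of the set left out, the SNU719 value of -0.90 passed (adjusted p = 0.0381 and 0.036).

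In YCC10 both trefoil genes were lower with sgMYB-E3. TFF1 went from 23.4 to 10.5 FPKM, 44.9% of control and below all 4 controls of the line. TFF2 went from 23.8 to 9.29 FPKM, 39.1% of control, which is within the range of the 4 controls, whose lowest was 9.09 FPKM. In SNU719, by contrast, TFF1 was at 0.797 and 1.40 FPKM and TFF2 at 0.0823 and 0.202. The shared log2 changes were -0.33 for TFF1 and -0.56 for TFF2 (adjusted p = 1 for both).

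The remaining 4 genes did not pass with this guide (adjusted p = 1 for each). MUC1 was at 3.44 FPKM in sgCtrl and 3.07 in sgMYB-E3 in SNU719, and at 120.1 and 110.7 in YCC10. PGC was at 0.0840 and 0.138 FPKM in SNU719, above all 4 controls, and at 27.1 and 22.4 in YCC10. CAPN8 was at 19.1 and 18.6 FPKM in SNU719 and at 17.6 and 14.4 in YCC10, below all 4 controls in both. ANXA10 was at 0.607 and 1.01 FPKM in SNU719 and at 43.2 and 60.6 in YCC10, the latter above all 4 controls. MYB was less reduced by the guide than by siMYB in both lines.

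**Figure D3:**
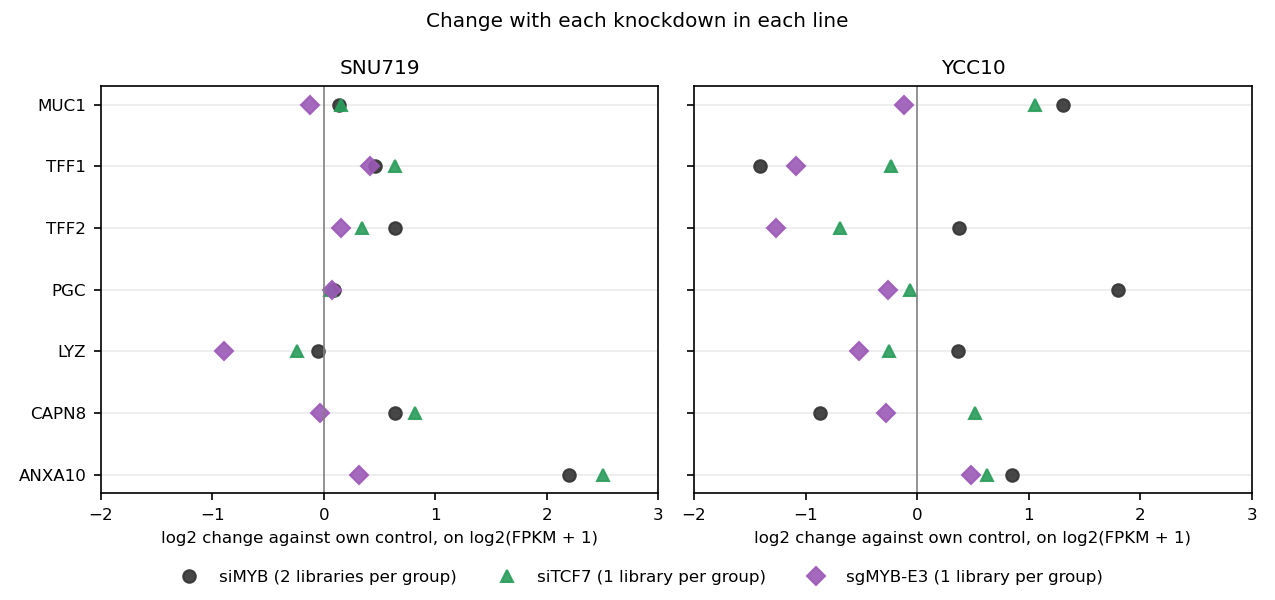
Change of the 7 genes with each knockdown against its own control, as a difference of log2(FPKM + 1), in SNU719 (left) and YCC10 (right); circles are siMYB (2 libraries per group), triangles siTCF7 and diamonds sgMYB-E3 (1 library per group each, with no error). In YCC10 MUC1 is to the right with both siRNAs, PGC is to the right with siMYB and near 0 with the other knockdowns, while CAPN8 lies on opposite sides of 0 with siMYB and siTCF7; in SNU719 ANXA10 is far to the right with both siRNAs.

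The difference between knockdowns was tested on the mean of the lines, each arm against its own controls. With a library of the TCF7 or CRISPRi set left out, that arm's change comes from 1 line alone. The siMYB change stays the mean of both lines. Between siMYB and siTCF7, PGC was higher with siMYB by 0.95 (SE 0.108, adjusted p = 0.00261) and CAPN8 lower (-0.78, SE 0.123, adjusted p = 0.00785), 2 of 7, where 13.2% of all genes passed. With a pseudocount of 0.1 FPKM PGC did not pass (adjusted p = 0.0643). PGC was near 0 FPKM in SNU719 and entered the fit only through YCC10. Its difference is thus a mean of the YCC10 value and a SNU719 value held near 0. The CAPN8 difference is a mean of unlike values. Within SNU719 the CAPN8 log2 change was 0.64 with siMYB and 0.81 with siTCF7. Within YCC10 it was -0.87 and 0.52. LYZ (0.41, adjusted p = 0.0613) passed without either library of the CRISPRi set in either line (adjusted p from 0.0476 to 0.0486), after median-of-ratios scaling (0.0432) and with a replicate block shared by both lines (0.0293). MUC1 (0.12, adjusted p = 0.782), TFF1 (-0.67, adjusted p = 0.346) and TFF2 (0.69, adjusted p = 0.312) did not pass.

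The difference of ANXA10 between siMYB and siTCF7 did not pass on the mean of the lines (-0.04, adjusted p = 0.968), which is a mean of unlike values. With either SNU719 library of the TCF7 set left out, the difference was 0.90, and with either YCC10 library of that set left out it was -0.98. Each sets the mean siMYB change of both lines against the siTCF7 change of 1 line, so neither is a difference within a line. Within SNU719 the log2 change was 2.20 with siMYB and 2.50 with siTCF7. Within YCC10 it was 0.85 and 0.62.

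Between siMYB and sgMYB-E3, PGC (1.04, SE 0.108, adjusted p = 0.00297) and LYZ (0.87, SE 0.118, adjusted p = 0.00703) were higher with siMYB, 2 of 7, where 9.25% of all genes passed. PGC did not pass with a pseudocount of 0.1 FPKM (adjusted p = 0.0503), and its SNU719 value is held near 0 here too. LYZ did not pass after quantile normalization (0.0546) or without either SNU719 library of the CRISPRi set (log2 difference 0.68, adjusted p = 0.051 and 0.0509). MUC1 (0.85, adjusted p = 0.067) and ANXA10 (1.12, adjusted p = 0.148) passed without any 1 of the 4 libraries of the TCF7 set (adjusted p from 0.0116 to 0.0116 and from 0.00735 to 0.00739). TFF2 (1.07, adjusted p = 0.152), TFF1 (-0.14, adjusted p = 0.87) and CAPN8 (0.04, adjusted p = 0.879) did not pass.

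Most other mucins were also low. Of 16 further mucin genes only MUC13, a membrane mucin, and OVGP1 reached a mean of 1 FPKM, and 13 were below 1 FPKM in every library. MUC13 in YCC10 was at 26.4 and 27.6 FPKM in siCtrl and 58.0 and 59.8 in siMYB, and it rose by 1.10 on the log2 scale (SE 0.0469, adjusted p = 0.000148). In SNU719 it was at 72.6 and 74.0 FPKM in siCtrl and 81.8 and 82.8 in siMYB. Over both lines its change of 0.63 passed (adjusted p = 0.0397) but not with the replicate block (adjusted p = 0.0983), with the block shared by both lines (0.0547) or without the filter (0.0738). Nor did it pass without any 1 of the 4 YCC10 libraries (log2 change 0.53 to 0.55).

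Most of the further gastric genes examined missed the filter of a mean of 1 FPKM. Of 17 further genes of surface and neck cells 7 were tested. With siMYB 2 rose and 1 fell in each line, a share of 3 in 7 that is near the 41.8% of all genes that passed in YCC10, against 22.6% in SNU719. SOX2 rose and GCNT1 fell in SNU719, and GCNT1 and GATA6 rose in YCC10. These calls ended under 6 of 16 alternatives for GATA6, 7 for SOX2 and, for GCNT1, 12 in SNU719 and 7 in YCC10. CTSE, the surface-cell protease cathepsin E, rose in SNU719 (log2 change 0.64, adjusted p = 0.00203) and fell in YCC10 (-0.29, adjusted p = 0.0108). The fall in YCC10 did not pass without any 1 of the 4 YCC10 libraries (adjusted p from 0.0511 to 0.0557), with a pseudocount of 0.1 FPKM (0.102), in the fit of all 16 libraries (0.114), or after median-of-ratios scaling (0.0727) or quantile normalization (0.306). The line difference for CTSE was -0.93 (SE 0.0833, adjusted p = 0.00288). CTSE reached the filter only through YCC10, so its SNU719 rise and this difference rest on SNU719 levels near the floor. Its levels were 0.337 and 0.469 FPKM in SNU719 siCtrl, 1.17 and 1.20 in SNU719 siMYB, 64.6 and 64.8 in YCC10 siCtrl, and 52.4 and 52.9 in YCC10 siMYB. Of 15 further genes of chief, parietal and endocrine cells, 14 missed the filter and the highest value among these was 1.63 FPKM, for gastrin (GAST). The parietal-cell potassium channel gene KCNQ1 was the exception and rose with siMYB in YCC10 (log2 change 0.66, adjusted p = 0.00882).

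Most tested enzymes that build mucin O-glycans changed with siMYB in YCC10. Of 30 such genes 19 were tested, and 13 rose and 4 fell in YCC10, where 41.8% of all genes passed (median log2 change 0.47, against -0.07 for all genes), and 4 rose and 6 fell in SNU719, where 22.6% passed (median 0.03, against -0.06). With either replicate block 7 rose in SNU719. The enzymes GALNT1, GALNT3, GALNT5 and GALNT6 start the O-glycan chain, and they did not move together. GALNT6 in YCC10 was at 28.9 and 31.4 FPKM in siCtrl and 62.0 and 64.4 in siMYB (log2 change 1.04, adjusted p = 0.000252). GALNT3 in YCC10 was at 28.5 and 30.3 FPKM in siCtrl and 9.04 and 9.94 in siMYB (-1.53, adjusted p = 0.00015), and GALNT1 fell with it (-1.30, adjusted p = 0.000781).

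GALNT5 had the largest increase of these enzymes in SNU719, from 10.9 and 11.4 FPKM to 29.7 and 29.8 (log2 change 1.34, adjusted p = 0.000226). It was followed by B4GALNT3 (0.99, adjusted p = 0.00317) and B3GNT3 (0.70, adjusted p = 0.00675), which extend glycan chains. With siTCF7, where 24.6% of all genes passed, 6 of the 19 rose and 3 fell (1 fell with the replicate block, without the filter or when any 1 library of the MYB or CRISPRi set was left out, and 0 when either TCF7-set library of YCC10 was), led by B4GALNT3 (1.05, adjusted p = 0.00531) and the fucosyltransferase FUT2 (0.96, adjusted p = 0.0161). With sgMYB-E3 none of the 19 passed.

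Of 25 genes of mucus folding and secretion 20 were tested. With siMYB 10 rose and 1 fell in YCC10, where 41.8% of all genes passed, and 4 rose and 4 fell in SNU719, where 22.6% passed. In the fit of all 16 libraries 2 rose and 2 fell in SNU719. None fell in YCC10 in that fit, without the filter or after either other scaling. Without either SNU719 siCtrl library or the first SNU719 siMYB library, 2 rose and 2 fell in SNU719, and without any 1 library of the set none fell in YCC10. In YCC10 AGR2, a disulfide isomerase needed to fold mucins, was at 624.8 and 643.1 FPKM in siCtrl and 1043 and 1070 in siMYB (log2 change 0.74, adjusted p = 0.000304), and its relative AGR3 rose by 1.40 (adjusted p = 0.00113). AGR3 was at 0.321 and 0.359 FPKM in siCtrl and 2.06 and 3.08 in siMYB there, so its rise started near the floor. The chloride channel gene CFTR rose in YCC10, from 5.63 and 5.81 FPKM to 14.7 and 15.7 (log2 change 1.27, adjusted p = 0.000152), and fell in SNU719, from 20.5 and 21.9 to 13.6 and 13.7 (-0.60, adjusted p = 0.00225). The line difference of CFTR was 1.87 (adjusted p = 0.000742). The granule protein gene SYTL2 rose by 0.81 in SNU719 (adjusted p = 0.00118) and by 0.69 over both lines (adjusted p = 0.00162).

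With siTCF7, where 24.6% of all genes passed, 9 of the 20 secretion genes rose and 1, CFTR, fell. The fall of CFTR was 0.92 (adjusted p = 0.000624), opposite to the direction with siMYB in YCC10 and the same as that in SNU719. AGR3 rose by 1.10 (adjusted p = 0.0161). Its level was 29.2 FPKM in siCtrl and 42.7 in siTCF7 in SNU719, and 0.787 and 4.68 in YCC10. When either TCF7-set library of YCC10 was left out, only 3 of the 20 rose, and AGR3 did not pass (log2 change 0.53, adjusted p = 0.163). With sgMYB-E3 the only gene of these lists past the threshold was CREB3L1, a transcription factor of secretory cells, which fell by 0.69 (adjusted p = 0.0163). Its level was 9.16 FPKM in sgCtrl and 5.25 in sgMYB-E3 in SNU719, and 19.1 and 11.6 in YCC10. It did not pass without any 1 of the 4 CRISPRi-set libraries (adjusted p from 0.0655 to 0.101), either SNU719 siMYB library or either YCC10 siCtrl library of the MYB set (0.0514 to 0.0571).

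**Figure D4:**
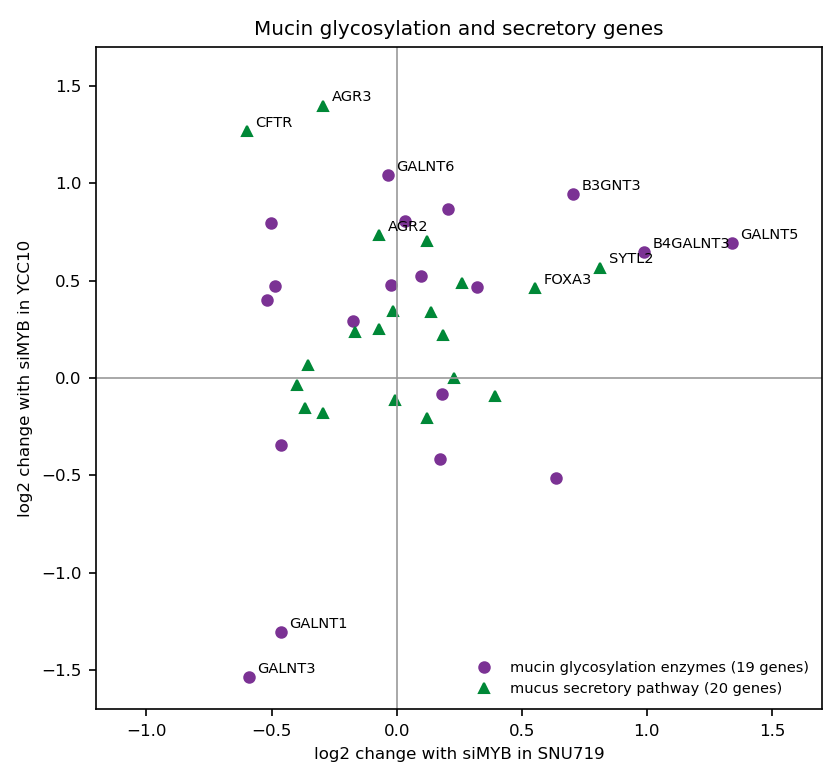
Change with siMYB in SNU719 (horizontal) and YCC10 (vertical), as differences of log2(FPKM + 1), for 19 enzymes of mucin O-glycan synthesis (circles) and 20 genes of mucus folding and secretion (triangles); lines mark 0. AGR3, CFTR and GALNT6 are high on the YCC10 axis, GALNT5 and B4GALNT3 are to the right in both, and GALNT3 and GALNT1 are low in both.

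The genes whose levels were most like each member were found by Pearson's r across the 16 libraries after the mean of each line and set was subtracted; these are descriptions, and the siMYB libraries of YCC10 weigh heavily in them. PGC was most like GALNT6 (r = 0.984), ENTPD2 (0.979) and SPG21 (0.979). In YCC10, GALNT6 was likewise near its control with siTCF7 (38.4 and 41.2 FPKM) and with sgMYB-E3 (43.1 and 43.5). MUC1 was most like ATP6AP1 (0.980), RNASE1 (0.979) and SLC44A4 (0.976), and RNASE1 in YCC10 went from 7.18 to 22.6 FPKM with siTCF7. TFF1 was most like IFRD1 (0.916), TGFBR2 (0.912) and SLC7A11 (0.884).

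TFF2 and LYZ had weaker likenesses. TFF2 was most like LINC02038 (0.863), LOC100288798 (0.782) and CYSRT1 (0.770), and LYZ was most like CLNS1A (0.843), SNORA54 (0.827) and SLC25A13 (0.817). SNORA54 was listed at 0 outside the sgCtrl libraries (17.2 FPKM in SNU719 and 10.1 in YCC10), so its r rests on that set. Among the members, r was 0.84 for MUC1 with PGC, 0.76 for TFF1 with CAPN8, -0.70 for TFF1 with PGC and -0.64 for MUC1 with TFF1. The neighbours TFF1 and TFF2 had an r of 0.30.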

How the data were processed

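RNA-seq libraries were made from 1 ug of total RNA with a stranded, polyA-selecting TruSeq kit, per the labels' protocols. The submitters' processing notes name bcl2fastq 2.20.0, HISAT2 2.1.0, Cufflinks 2.2.1 and the hg38 build; the sources used here give neither settings nor annotation. The deposited values are FPKM in 1 table of 33648 rows and 16 libraries. Rows of a symbol were summed (MUC5AC 2 rows, MUC6 4, the other members 1 each). Relative depth, read from the lowest values, was 0.874 to 1.89 times that of the first library. Libraries fall into 12 groups in 3 sets. Nothing in the sources says that libraries of a group are separate cultures, so p-values measure only the spread between these libraries, which may be technical.

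Tests used limma 3.58.1 in R 4.3.3 (lmFit, eBayes with an intensity trend) on log2(FPKM + 1). A gene entered a fit if its mean was 1 FPKM or more, with Benjamini-Hochberg adjustment over all genes tested and a threshold of 0.05. A log2 change on this scale understates that of low genes. siMYB was fitted on the 8 MYB-set libraries, the siTCF7 and sgMYB-E3 effects on all 16 with a term for each line and set, and the lines on the 8 controls. The single siTCF7 and sgMYB-E3 libraries are assumed to vary like the MYB-set ones. In the fit of all 16, a siTCF7 or sgMYB-E3 change that differs between the lines also counts as spread. The scripts were tested on simulated data. Same-numbered MYB-set libraries deviated together (r of replicate differences 0.453 and 0.505 within a line, 0.347 to 0.609 over all pairs of groups, 11700 genes without short RNAs). The numbers, which come from the labels, thus mark a difference that libraries of both lines share. The main fits hold no term for it, so it counts as spread there. Fits with a block are given where they change a call. The members and gene lists were chosen with earlier results of these data known. The 7 members tested are named in every comparison, and MUC5AC and MUC6 are given by their levels alone. Of other lists the text names at most the 3 members with the largest change past the threshold per comparison. Alternatives were another pseudocount, no filter, 2 other scalings, the highest row per symbol, replicate blocks, the fit of all 16 libraries and leaving out each library.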

Additional observations from a re-analysis of the deposited data

Results flagged for a closer look

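The siMYB change differed between the lines in 6 genes by a test of the difference itself (limma, YCC10 minus SNU719 on the log2(FPKM + 1) scale). The difference was 1.71 for PGC, 1.17 for MUC1 and 0.42 for LYZ, where the change in YCC10 was the higher one. It was -1.87 for TFF1, -1.51 for CAPN8 and -1.35 for ANXA10. CAPN8 passed the test in opposite directions in the lines, and ANXA10 rose in both. When any 1 library was left out 3 to 5 of the 6 passed, and in the fit of all 16 libraries 3 did. LYZ missed the threshold in 11 of 16 alternatives, and the PGC difference restates its YCC10 change, since PGC was near 0 FPKM in SNU719. The knockdown of MYB itself was deeper in YCC10, at 5.95% of control against 20.2% in SNU719, and the part of this in the 6 differences was not tested.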

How the results depend on the processing

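Across the comparisons, no called change of the 9 genes turned its direction under any alternative. Of the 33 values not called, 14 took both signs. ANXA10 for siMYB minus siTCF7 was 0.90 without either SNU719 library of the TCF7 set and -0.98 without either YCC10 library of it. Both values set the siMYB mean of both lines against siTCF7 in 1 line, as do the ends of the MUC1 range below. TFF2 ran from -0.70 to 0.34 with siTCF7 and from -1.27 to 0.15 with sgMYB-E3, TFF1 from -0.24 to 0.63 and from -1.08 to 0.42, and MUC1 for siMYB minus siTCF7 from -0.33 to 0.57. The calls of the 9 genes that ended under an alternative are given beside each result, and those of the other genes in part. The replicate block gave 4856 genes for siMYB in SNU719 and 4352 for the line difference, and 1 of the 7 genes over both lines; among the 9 genes it changed no call other than those of TFF2. A block shared by both lines gave 5269 and 4750 genes, 2549 for siMYB minus siTCF7 and 2087 for siMYB minus sgMYB-E3. The fit of all 16 libraries left 3 of the 7 genes for the line difference, no filter gave 8 genes for sgMYB-E3, a pseudocount of 0.1 FPKM left 1 of the 7 for siMYB minus siTCF7 and 1 for siMYB minus sgMYB-E3, and quantile normalization left 1 for the latter. Except where a count of genes is smaller by construction with fewer libraries, the cause was not tested.

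Leaving out 1 library gave 1113 to 2323 genes for siMYB in SNU719, 3414 to 4725 in YCC10, 972 to 1418 for the line difference, 1983 to 3065 over both lines, 630 to 4307 for siTCF7, 3 to 40 for sgMYB-E3, 982 to 3248 for siMYB minus siTCF7 and 150 to 2475 for siMYB minus sgMYB-E3. Of the 7 genes it left 2 to 3, 5 to 6, 3 to 5, 1 to 3, 2 to 3, 0 to 1, 2 to 3 and 1 to 4 in the same order. Median-of-ratios scaling moved the share of higher among called genes from 35.5% to 51.4% (SNU719), from 36.6% to 54.0% (YCC10), from 29.8% to 52.2% (both lines), from 30.9% to 49.1% (siMYB minus siTCF7) and from 31.1% to 55.0% (siMYB minus sgMYB-E3), and quantile normalization moved the line difference from 45.5% to 56.9%. The median of all genes shifted by at most 0.0874. FPKM without counts gives no absolute depth, and the relative depth ran from 0.874 to 1.89 times that of the first library. How firmly genes near 0 (TFF2 and PGC in SNU719) can be compared is therefore unknown.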

Other observations

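Other gastric genes also differed between the control libraries of the lines, where 64% of all genes passed. All 7 tested genes of surface and neck cells passed, 6 higher and 1 lower in YCC10, led by CTSE (log2 difference 5.29, SE 0.151, adjusted p = 1.5e-06), the trefoil gene TFF3 (3.90, SE 0.382, adjusted p = 0.00023) and the water channel gene AQP5 (2.27, SE 0.174, adjusted p = 7.96e-05). MUC13 was lower in YCC10 (-1.60, SE 0.234, adjusted p = 0.00134), as was KCNQ1 (-1.07, adjusted p = 0.000378). Of 20 tested enzymes of mucin O-glycan synthesis 13 were higher and 3 lower in YCC10, with GALNT6 at 5.12 (adjusted p = 4.95e-07) and GCNT3, which branches O-glycans, at -3.68 (adjusted p = 9.2e-07). Of the 20 genes of mucus folding and secretion 6 were higher, led by ERN2 (3.93, adjusted p = 2.43e-06) and the secretory-cell transcription factor SPDEF (3.77, adjusted p = 2.81e-06), and 9 were lower, among them AGR3 (-4.73, adjusted p = 4.47e-06). CTSE, TFF3, AQP5, GALNT6, ERN2 and SPDEF were below 1 FPKM in every SNU719 control and GCNT3 in every YCC10 control. These 7 genes reached the filter only through the other line, so a test of them could hardly miss, and the counts that hold them support nothing. AGR3 ran from 0.321 to 1.36 FPKM in the YCC10 controls and from 29.2 to 57.3 in those of SNU719. The same limit holds for it.

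Between siMYB and sgMYB-E3, CREB3L1 was higher with siMYB by 0.93 (SE 0.0787, adjusted p = 0.00136) and GALNT3 lower (-0.93, SE 0.105, adjusted p = 0.00391). Between siMYB and siTCF7, CFTR was higher with siMYB by 1.25 (SE 0.0696, adjusted p = 0.000212) and GALNT3 lower (-1.34, SE 0.105, adjusted p = 0.000774). The CFTR difference is a mean of unlike values. With siMYB CFTR rose in YCC10 (log2 change 1.27) and fell in SNU719 (-0.60). With siTCF7 it went from 9.06 to 4.27 FPKM in YCC10 and from 20.3 to 10.4 in SNU719.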
